A study of Drosophila melanogaster with 7 samples.

Results

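The comparison set untreated Drosophila S2 libraries labelled with short analogue pulses against untreated libraries labelled with long ones, and the members were all replication forks called on the 6 main chromosome arms (X, both arms of chromosomes 2 and 3, and chromosome 4). They numbered 28737 forks on 25446 reads, of 30854 forks called in the whole series on any contig. S2 is a cell line made from Drosophila embryos. The short scheme was 3 min of EdU followed by 6 min of BrdU (replicates 3 and 4, with 2999 and 2716 forks), and the long scheme was 7 min of EdU followed by 15 min of BrdU (replicates 1 and 2, with 10277 and 12745 forks). All 4 libraries had 10 µM of each analogue, a buffer wash between the pulses, a chase of 20 min in 50 µM thymidine and sequencing on a PromethION nanopore instrument, and none had a replication inhibitor. Flasks labelled side by side were combined into 1 library, and the labels do not say that the replicates came from separate cultures, so the p-values below measure only the spread between these libraries, which may be technical.

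EdU and BrdU are thymidine analogues that a replication fork builds into new DNA in place of thymidine. When one pulse follows the other, a moving fork leaves EdU first and BrdU ahead of it, and the order on the molecule gives its direction. A nanopore reads the unamplified strand, so that a caller can assign the analogues base by base along each single molecule, and the length of a segment divided by the pulse time is commonly read as fork speed.

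Before the values, 4 features of the libraries bear on every comparison. The labels give replicates 1 and 2 one batch and replicates 3 and 4 another, so scheme and batch cannot be told apart. Per the file headers, all forks of the short-pulse libraries were called with DNAscent 4.0.3, whereas 86.4% of the forks of long-pulse replicate 1 and 90.6% of those of replicate 2 were called with version 4.0.1. The remaining 1400 and 1192 long-pulse forks, in 3 output blocks, were called with 4.0.3 and allow a comparison within 1 version, in which version and output block cannot be told apart. Reads with a fork were shorter in the short-pulse libraries, with medians of 29.4 and 35.7 kb in replicates 3 and 4 against 56.3 and 57.6 kb in replicates 1 and 2. The first output block of long-pulse replicate 2 held 1152 EdU segments in the segment file but 2 forks in the fork files used here, and 1150 of those segments lay on reads without a fork row and were not analysed here. In the other 3 libraries no EdU segment lay outside a fork.

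EdU segments were shorter after the shorter pulse. The median EdU segment was 3.42 kb in short-pulse replicate 3, 3.39 kb in replicate 4, 5.36 kb in long-pulse replicate 1 and 6.06 kb in replicate 2. Both short-pulse libraries lay below both long-pulse libraries, and the groups did not overlap. The difference was -0.74 on the log2 scale (3.41 ± 0.026 against 5.71 ± 0.493 kb, SD, n = 2 libraries each). An exact two-sided permutation test gave p = 0.33, the smallest p that 2 against 2 libraries allow, and 0.429 after Benjamini-Hochberg adjustment over the 9 comparisons made, so no comparison between schemes here could pass a threshold of 0.05. Within version 4.0.3 the long-pulse medians were 4.26 and 4.55 kb. Both short-pulse libraries again lay below them, with a difference of -0.37 on the log2 scale and no overlap.

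BrdU segments showed the same order with more spread between replicates. The median BrdU segment was 3.36 kb in short-pulse replicate 3, 3.81 kb in replicate 4, 5.92 kb in long-pulse replicate 1 and 6.40 kb in replicate 2. The groups did not overlap, and they differed by -0.78 on the log2 scale (exact permutation p = 0.33). Within version 4.0.3 the long-pulse medians were 4.62 and 4.85 kb, and the difference was -0.40 on the log2 scale, again without overlap. The BrdU end lay within 1 kb of the end of the read in 39.1% of the forks of short-pulse replicate 3 and 23.0% of those of replicate 4, against 23.4% and 26.7% in long-pulse replicates 1 and 2, so replicate 3, with the shortest BrdU segments, had the most tracks that ran up to the read end. Its part in the BrdU difference was not tested. With only forks that ended at least 5 kb inside the read the difference was -0.73, and -0.29 among those of version 4.0.3. In the forks eligible for the single-fork examples below, which met this limit, the BrdU median of replicate 3 was 5.75 kb. There it was 3.74 kb in replicate 4 and 5.87 and 6.18 kb in long-pulse replicates 1 and 2.

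**Figure D1:**
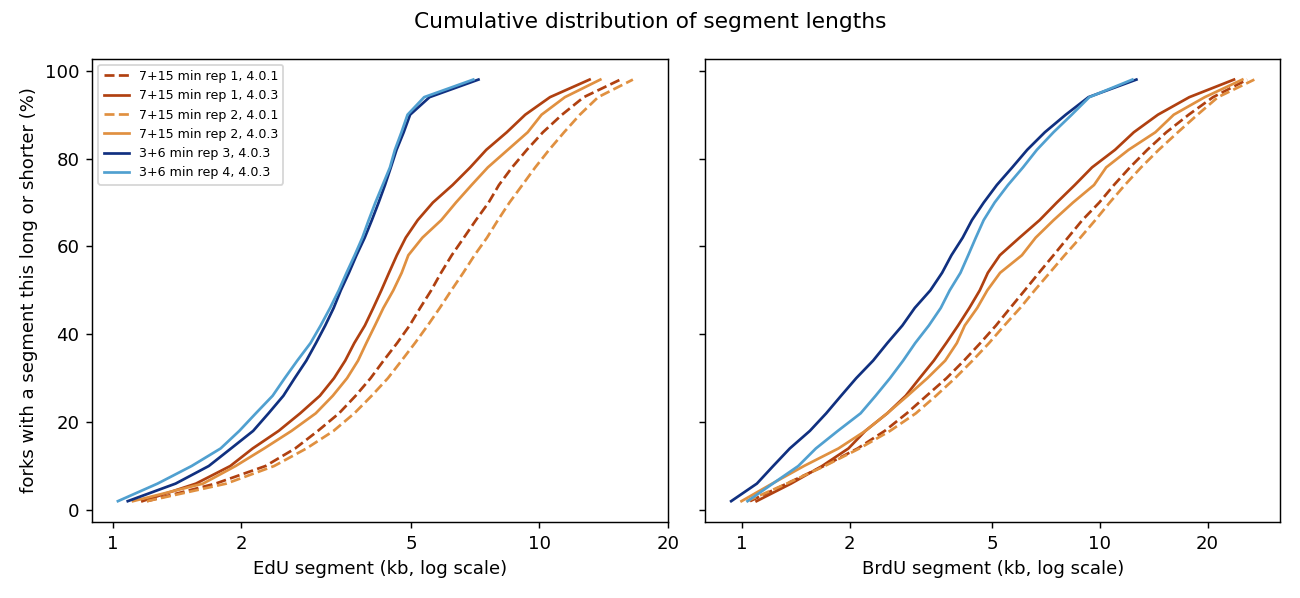
Cumulative distribution of EdU (left) and BrdU (right) segment lengths in kb on a log axis, against the percentage of forks with a segment that long or shorter. Each line is 1 library and caller version, dashed for DNAscent 4.0.1 and solid for 4.0.3, with short-pulse libraries in blue and long-pulse libraries in orange; the solid lines bend at 5 kb, and 90.5% and 92.1% of the short-pulse EdU segments lie below it.

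The cumulative distributions also differed in shape between caller versions at a segment length of 5 kb. In short-pulse replicate 3, 780 forks had an EdU segment of 4 to 5 kb and 163 one of 5 to 6 kb. In short-pulse replicate 4 these numbers were 695 and 107. The long-pulse forks of version 4.0.3 had 287 against 100 forks in replicate 1 and 234 against 91 in replicate 2. No such step was seen in the long-pulse forks of version 4.0.1, with 1143 against 1135 forks in replicate 1 and 1308 against 1243 in replicate 2. BrdU segments had the step as well: the ratio of forks just below to forks just above 5 kb was 1.95 and 2.14 in the short-pulse libraries and 2.42 and 2.36 in the 4.0.3 forks of the long-pulse libraries, against 1.12 and 1.15 in their 4.0.1 forks. The step was thus present in both schemes wherever 4.0.3 was used. The library medians of the 4.0.3 forks, at 3.36 to 4.85 kb, lay below it. In long-pulse replicates 1 and 2, 64.9% and 59.2% of the 4.0.3 EdU segments were under 5 kb, against 42.6% and 36.8% with 4.0.1. The part of the step in the 4.0.3 medians, and in the ratios between schemes within 4.0.3, was not tested.

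Median segment length did not rise in proportion to pulse time. The long EdU pulse lasted 2.33 times as long as the short one, and the long-pulse EdU median was 1.68 times the short-pulse median over all forks and 1.29 times within version 4.0.3. The long BrdU pulse lasted 2.5 times as long, and the BrdU medians differed 1.72-fold over all forks and 1.32-fold within 4.0.3. Median length per minute of pulse was therefore higher in the short scheme, 1.14 kb per min of EdU and 0.598 kb per min of BrdU, than in the long scheme, 0.816 and 0.411 kb per min. Each added minute of EdU pulse went with 0.576 kb of added median length (0.484 to 0.668 kb over the pairs of libraries) and each added minute of BrdU with 0.286 kb (0.234 to 0.338 kb). Within 4.0.3 these were 0.25 kb of EdU and 0.128 kb of BrdU, both lower than over all forks by more than a factor of 1.5. These values pool reads of all lengths. On reads over 60 kb the ratios were nearer to those of pulse time, 1.93 for EdU and 2.12 for BrdU. There the short and long schemes had 1.18 and 0.976 kb per min of EdU, and 0.626 and 0.531 kb per min of BrdU. Within 4.0.3 the ratios on reads over 60 kb were 1.35 and 1.45.

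**Figure D2:**
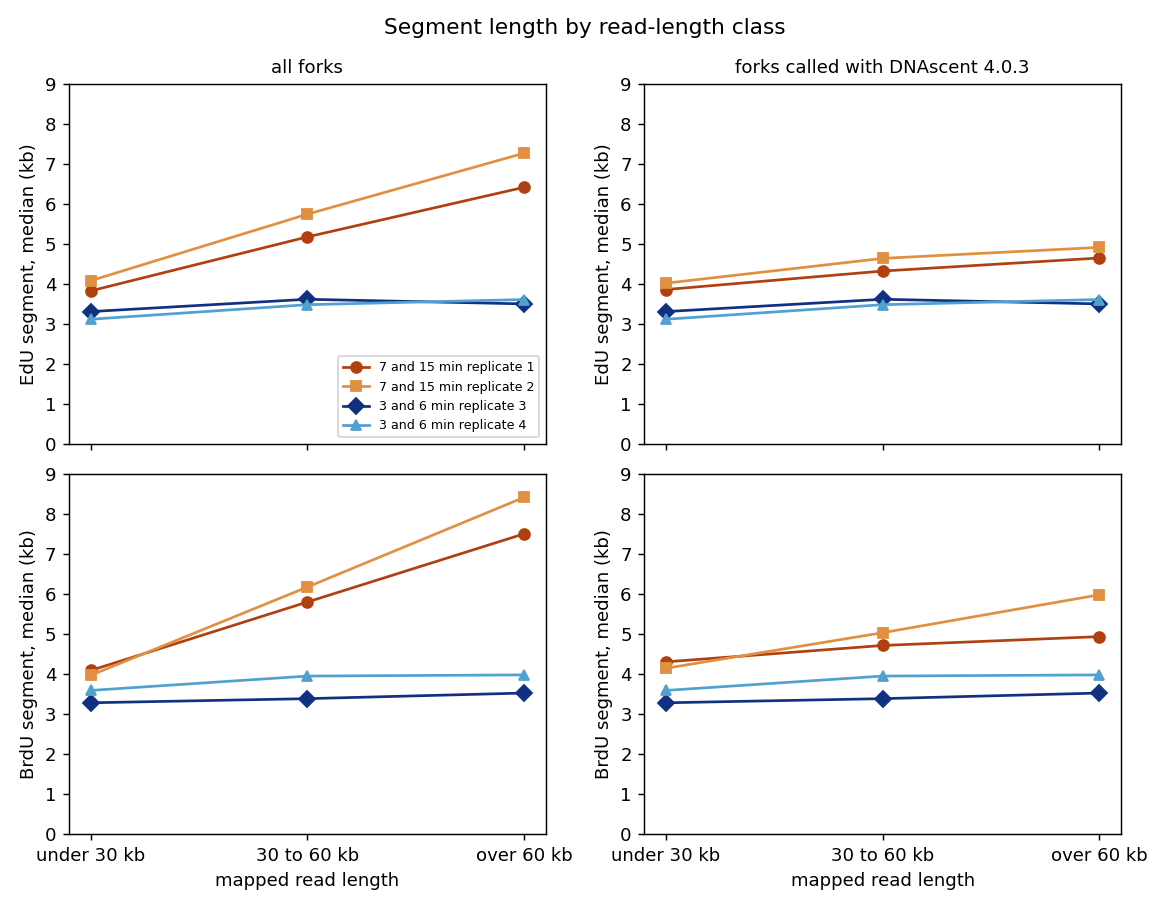
Median EdU (top) and BrdU (bottom) segment length in kb in 3 classes of mapped read length, for all forks (left) and for forks called with DNAscent 4.0.3 (right). Each line is 1 library; the long-pulse medians climb with read length over all forks, from 3.82 to 6.41 kb of EdU in replicate 1, while the short-pulse medians stay between 3.11 and 3.61 kb.

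The schemes stood further apart on longer reads. On reads under 30 kb the median EdU segment was 3.30 and 3.11 kb in short-pulse replicates 3 and 4 and 3.82 and 4.07 kb in long-pulse replicates 1 and 2, a 1.23-fold difference. On reads of 30 to 60 kb it was 3.61 and 3.47 kb against 5.17 and 5.74 kb, or 1.54-fold. On reads over 60 kb it was 3.49 and 3.60 kb against 6.41 and 7.26 kb, or 1.93-fold. The short-pulse libraries lay below the long-pulse libraries in each class, and the BrdU medians did so as well, with ratios of 1.17, 1.63 and 2.12. Read length was not equal between schemes within a class. Under 30 kb the median read was 18.4 and 19.1 kb in short-pulse replicates 3 and 4 against 23.1 and 23.5 kb in long-pulse replicates 1 and 2. Over 60 kb it was 76.7 and 80.4 kb against 90.3 and 85.4 kb. From the shortest to the longest class the EdU median differed by 0.75 and 0.83 on the log2 scale in the long-pulse libraries and by 0.08 and 0.21 in the short-pulse libraries. All 4 libraries had longer EdU segments on longer reads (exact sign-flip p = 0.12, the smallest that 4 libraries allow). Short minus long, that read-length difference was -0.64 on the log2 scale for EdU and -0.85 for BrdU, in both cases without overlap of the groups (exact permutation p = 0.33).

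Within version 4.0.3 the classes stood closer together. The EdU ratio of long to short pulses was then 1.23 under 30 kb, 1.26 from 30 to 60 kb and 1.35 over 60 kb, and the BrdU ratio was 1.23, 1.33 and 1.45. On reads under 30 kb both versions gave nearly the same long-pulse EdU medians, 3.85 kb with 4.0.3 and 3.81 kb with 4.0.1 in replicate 1, and 4.01 against 4.10 kb in replicate 2. On reads over 60 kb they stood apart, at 4.64 against 6.58 kb in replicate 1 and 4.91 against 7.40 kb in replicate 2. For BrdU on reads under 30 kb the 4.0.3 medians were the longer ones, 4.31 against 3.97 kb in replicate 1 and 4.15 against 3.90 kb in replicate 2. Over 60 kb they were the shorter ones. Under 30 kb the median read was 19.7 and 19.3 kb with 4.0.3 against 23.9 and 24.3 kb with 4.0.1, so the versions were not compared at equal read length. The long-pulse EdU medians of the 4.0.3 forks lay above both short-pulse medians in each of the 3 classes.

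**Figure D3:**
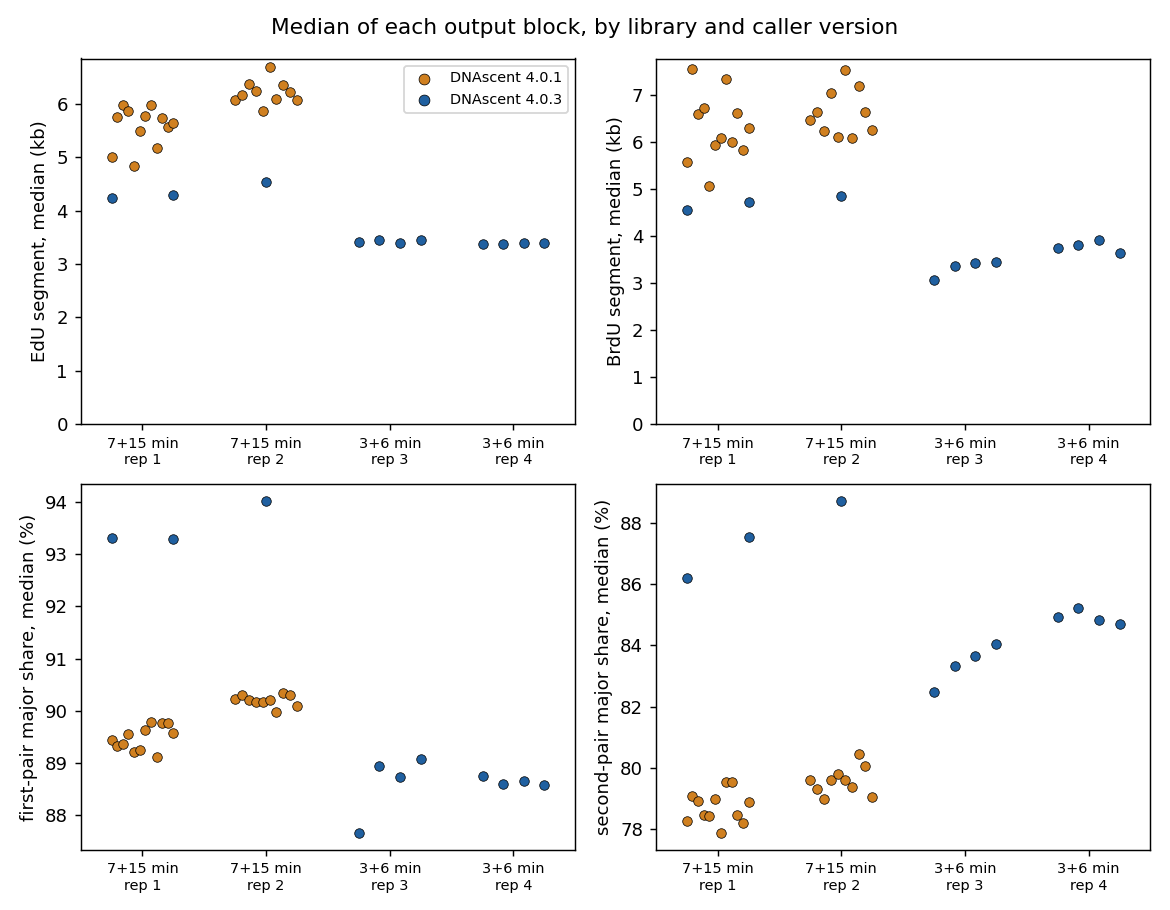
Median of each sequencing output block with at least 50 forks, for EdU and BrdU segment length in kb (top) and for the 2 major shares in percent (bottom, axes not starting at 0). Points are blocks, grouped by library and coloured by caller version, and their sideways position within a library has no meaning; in the long-pulse libraries the 3 blocks of DNAscent 4.0.3 lie apart from the 22 blocks of 4.0.1 in all 4 panels.

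The separation of versions held block by block. The 22 long-pulse blocks of version 4.0.1 with at least 50 forks had median EdU segments of 4.85 to 6.69 kb, and the 3 blocks of 4.0.3 had 4.25 to 4.55 kb. For BrdU the ranges were 5.06 to 7.54 kb and 4.54 to 4.85 kb. Neither pair of ranges overlapped. The long-pulse 4.0.3 forks lay on shorter reads, with medians of 43.9 and 46.8 kb in replicates 1 and 2 against 58.6 and 58.7 kb for 4.0.1. The 4.0.1 block with the shortest reads, at a median of 38.0 kb, had the lowest 4.0.1 medians, 4.85 kb of EdU and 5.06 kb of BrdU. The part of read length in the separation of the blocks was not tested. The 8 short-pulse blocks, all of 4.0.3, ran from 3.38 to 3.45 kb for EdU, below every long-pulse block.

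The stretch between the EdU and the BrdU segment, which carried neither call, was shorter after short pulses. Its median was 1.19 kb in short-pulse replicate 3, 1.27 kb in replicate 4, 1.52 kb in long-pulse replicate 1 and 1.42 kb in replicate 2. The groups did not overlap over all forks (exact permutation p = 0.33), but with forks that ended at least 5 kb inside the read the sign turned, to 0.088 kb longer in the short scheme. Within 4.0.3 the long-pulse medians were 2.48 and 2.56 kb and the short-pulse stretch differed from them by -1.29 kb, with no overlap. In short-pulse libraries the stretch took a median of 14.3% and 14.4% of the track, against 18.7% and 17.7% in the 4.0.3 forks of long-pulse replicates 1 and 2 and 9.85% and 8.77% in their 4.0.1 forks. No stretch exceeded 5.00 kb in any library.

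Segment lengths also varied less from fork to fork after short pulses. The ratio of the upper to the lower quartile of the EdU segment was 1.78 and 1.88 in short-pulse replicates 3 and 4 and 2.27 and 2.37 in long-pulse replicates 1 and 2. For BrdU it was 2.82 and 2.44 against 3.52 and 3.56. The groups did not overlap in either case, and the differences of the log2 ratios were -0.34 for EdU and -0.43 for BrdU (exact permutation p = 0.33 each). The BrdU difference was smaller by over 1.5 times with read-length classes weighted equally, at -0.25, and with means over forks, at -0.27. Within 4.0.3 the mean ratios were 1.83 ± 0.069 against 2.17 ± 0.046 for EdU and 2.63 ± 0.27 against 3.30 ± 0.28 for BrdU (SD, n = 2). Among 4.0.3 forks on reads under 30 kb the EdU ratios overlapped, at 1.90 ± 0.081 against 1.97 ± 0.077. The short-pulse upper quartiles of EdU, 4.38 and 4.34 kb, lay below the step at 5 kb. Those of the long-pulse 4.0.3 forks, 6.44 and 7.08 kb, lay above it. The part of the step in the spread was not tested. On reads under 30 kb the scheme made little difference to BrdU spread, 2.51 ± 0.122 against 2.63 ± 0.095, and the groups overlapped. On reads over 60 kb the ratios were 2.85 ± 0.45 and 3.79 ± 0.045. The median fork had a BrdU segment 0.973 and 1.16 times as long as its EdU segment in the short-pulse libraries and 1.14 and 1.12 times in the long-pulse libraries, so over all reads this proportion overlapped between schemes (p = 1, exact permutation). On reads over 60 kb it did not overlap, at 0.997 and 1.12 against 1.20 and 1.22 (exact permutation p = 0.33). Within 4.0.3 the long-pulse values there were 1.17 and 1.21, again without overlap.

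Each fork also carries 4 fractions in 2 pairs. The file does not name the analogue that each one counts, and the number of bases behind a fraction is unknown, so that no counting interval can be given. Each pair has a minor share, with medians of 0.668% to 2.04%, and a major share, with medians of 79.5% to 90.4%. The second-pair major share was higher on longer BrdU segments (Spearman's rho 0.40 to 0.56 over the forks of the 6 sets of library and version) and less closely tied to EdU length (0.12 to 0.27). For the first-pair major share the order of the segments differed between schemes. In short-pulse replicates 3 and 4 its rho was 0.24 and 0.24 with BrdU length and 0.20 and 0.16 with EdU length. In the long-pulse sets it was 0.16 to 0.22 with BrdU length and 0.32 to 0.33 with EdU length. These correlations are descriptions over forks, which share a library and are not replicates.

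The first-pair major share was slightly lower after short pulses. Its median was 88.6% in both short-pulse libraries, 89.8% in long-pulse replicate 1 and 90.4% in replicate 2. The groups did not overlap and differed by -1.48 points (exact permutation p = 0.33, 0.429 adjusted over the 9 comparisons). Within version 4.0.3 the long-pulse medians were 93.3% and 94.0%, and the difference was larger, -5.04 points. The direction was the same in all 3 read-length classes, at -1.07, -1.86 and -1.97 points from the shortest to the longest. The untreated control library, labelled with the long scheme and called with 4.0.1, had a median of 88.61%, level with the short-pulse libraries. With it added the groups overlapped, and the difference was -0.98 points (exact permutation p = 0.4).

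The second-pair major share changed sign with the caller version. Over all forks its median was 83.5% in short-pulse replicate 3, 85.0% in replicate 4, 79.5% in long-pulse replicate 1 and 80.2% in replicate 2. The short-pulse libraries lay above by 4.37 points, with no overlap (exact permutation p = 0.33). Within 4.0.3 the long-pulse medians were 87.0% and 88.7%, so the short-pulse libraries lay below, with a difference of -3.65 points and again no overlap. Long-pulse output blocks of version 4.0.1 had medians of 77.9% to 80.5%, those of 4.0.3 had 86.2% to 88.7%, and the short-pulse blocks lay between them at 82.5% to 85.2%. No direction between the schemes can be given for this share apart from the version.

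**Figure D4:**
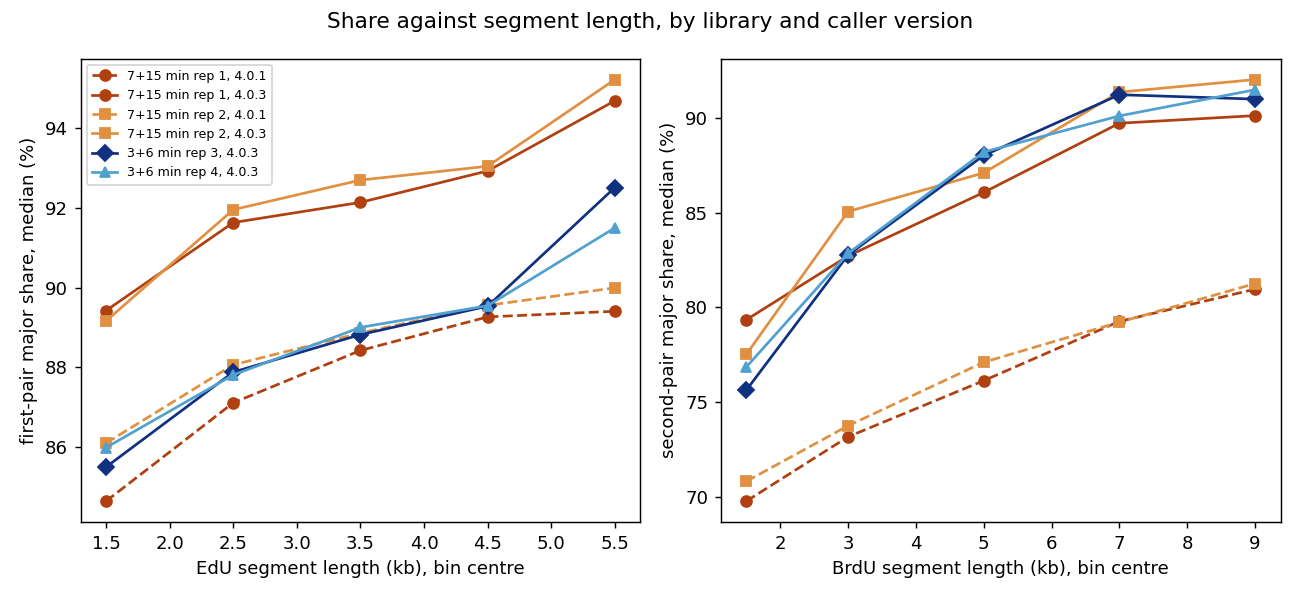
Median major share in percent (axes not starting at 0) of the first pair against EdU segment length (left) and of the second pair against BrdU segment length (right), in bins placed at their centres in kb. Lines are libraries and caller versions, dashed for DNAscent 4.0.1; on the left the short-pulse lines run with the 4.0.1 long-pulse lines up to 5 kb, and on the right they run with the 4.0.3 long-pulse lines.

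Setting forks of similar segment length side by side showed opposite patterns for the 2 major shares. At EdU segments of 3 to 4 kb the first-pair major share was 88.8% and 89.0% in short-pulse replicates 3 and 4. It was 88.4% and 88.9% in the 4.0.1 forks of the long-pulse libraries and 92.1% and 92.7% in their 4.0.3 forks. The short-pulse values thus overlapped with those of the other version and differed by -3.51 points from those of their own. They overlapped with the 4.0.1 values in each bin from 1 to 5 kb. In the bin of 5 to 6 kb the short-pulse mean of 92.0% lay between the versions. It differed by 2.31 points from the 4.0.1 mean and by -2.95 points from the 4.0.3 mean, both without overlap. At BrdU segments of 4 to 6 kb the second-pair major share was 88.0% and 88.2% in the short-pulse libraries. There it was 76.1% and 77.1% in the 4.0.1 forks of the long-pulse libraries and 86.1% and 87.1% in their 4.0.3 forks. In bins of BrdU length from 2 to 10 kb the short-pulse mean stood within -1.08 to 1.53 points of the long-pulse 4.0.3 mean, and in the bin of 1 to 2 kb it differed by -2.19 points (76.2% against 78.4%). Against the 4.0.1 forks it was higher in each of the 5 bins, by 5.95 to 11.5 points.

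Both major shares were more variable between forks after short pulses when segment length was not matched. The interquartile range of the first-pair major share was 7.80 and 7.71 points in short-pulse replicates 3 and 4 and 4.98 and 4.52 points in long-pulse replicates 1 and 2. For the second pair it was 16.2 and 15.3 points against 12.6 and 12.3 points. The ranges did not overlap between schemes, and they did not within 4.0.3 either, where the long-pulse means were 5.58 ± 0.41 and 13.4 ± 0.26 points (SD, n = 2). The order was the same in the 3 read-length classes. The first-pair share exceeded the second-pair share on 67.9% and 63.7% of short-pulse forks, on 90.5% and 91.5% of long-pulse forks, and on 76.1% and 76.3% of the long-pulse forks of 4.0.3.

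The minor shares gave no order between schemes that held across settings. The first-pair minor share had medians of 0.799% and 0.668% in short-pulse replicates 3 and 4 and of 0.990% and 0.877% in long-pulse replicates 1 and 2, but within 4.0.3 the long-pulse values were 0.704% and 0.556% and the groups overlapped. The second-pair minor share was 2.04% and 1.36% against 1.99% and 1.80%, with overlap (exact permutation p = 1). A first-pair minor share of exactly 0 was listed for 21.2% and 25.0% of short-pulse forks and for 11.4% and 11.7% of long-pulse forks. In the long-pulse libraries it was listed for 16.2% and 17.4% of the 4.0.3 forks and for 10.6% and 11.1% of the 4.0.1 forks.

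On longer reads the shares were lower. From reads under 30 kb to reads over 60 kb the second-pair major share differed by -4.20 and -2.96 points in short-pulse replicates 3 and 4 and by -2.12 and -1.59 points in long-pulse replicates 1 and 2. All 4 libraries had this direction (exact sign-flip p = 0.12). The first-pair major share differed by -1.29 and -1.15 points in the short-pulse and by -0.40 and -0.25 points in the long-pulse libraries. Within 4.0.3, long-pulse replicate 1 was the exception for the first pair, at 0.72 points, and for the second pair long-pulse replicate 2 was close to 0, at -0.17 points, with replicate 1 at -2.18 points.

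The chromosome arms gave the same picture of length. Over all forks the ratio of long-pulse to short-pulse median EdU segments ran from 1.56 on chromosome 4 to 1.76 on 3L, and on each of the 6 arms the short-pulse libraries lay below the long-pulse libraries for both segments. The second-pair major share was 3.67 to 5.86 points higher in the short scheme over the arms, and within 4.0.3 the difference was -4.90 to -2.06 points. Chromosome 4, the small and largely heterochromatic autosome, carried the fewest forks, with 28 and 24 in the short-pulse libraries. There the EdU medians of the 4.0.3 forks overlapped between schemes, at 3.26 ± 0.372 kb in short pulses and 3.05 ± 0.529 kb in long pulses (SD, n = 2), the latter from 15 and 6 forks.

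Single forks show what the medians stand for. They were taken from reads of 30 to 60 kb with 1 fork that ended at least 5 kb inside the read, which left 1341 and 1480 forks in long-pulse replicates 1 and 2 and 164 and 374 in short-pulse replicates 3 and 4. Coordinates are those of the dm6 build, and genes are those whose RefSeq span held the middle of the track or lay nearest to it. In long-pulse replicate 1 the fork closest to the medians ran leftward over chr2R:9999397-10013520, in Pka-R2, which encodes a regulatory subunit of the cAMP-dependent protein kinase. It had 4.87 kb of EdU, 3.33 kb without a call and 5.92 kb of BrdU, and its major shares were 89.7% and 84.2%. Its counterpart in long-pulse replicate 2 ran rightward over chr2L:6787263-6799206 in nrv2, which encodes a beta subunit of the sodium pump, with 5.28 kb of EdU and 6.20 kb of BrdU.

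The counterparts in the short-pulse libraries had shorter EdU and BrdU segments. In short-pulse replicate 4 the fork closest to the medians ran rightward over chr3R:17245243-17252875 in beat-IIb, a member of the beaten path family of immunoglobulin-domain proteins, with 3.44 kb of EdU, 0.461 kb without a call and 3.73 kb of BrdU. In short-pulse replicate 3 it ran leftward over chr3L:566973-580041 in Hipk, which encodes a homeodomain-interacting protein kinase, with 4.25 kb of EdU and 5.68 kb of BrdU. Its stretch without a call was 3.13 kb and its track 13.1 kb, longer than the 11.9 kb track of the fork in nrv2. The 164 eligible forks of replicate 3 had medians of 4.03 kb of EdU and 5.75 kb of BrdU, longer than those of all its forks. In replicate 4 the eligible forks had medians of 3.48 and 3.74 kb. Those of long-pulse replicate 1 had 4.97 and 5.87 kb, and those of long-pulse replicate 2 had 5.36 and 6.18 kb. For BrdU, eligible forks of replicate 3 were thus close to the long-pulse ones. The longest EdU segment among eligible forks was 11.6 kb in replicate 3, in lovit, a gene for a vesicular transporter, and 11.8 kb in replicate 4, in syd, which encodes an adaptor of kinesin transport. In the long-pulse libraries it was 24.3 kb, nearest to CG34038, and 21.6 kb, nearest to sbb.

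**Figure D5:**
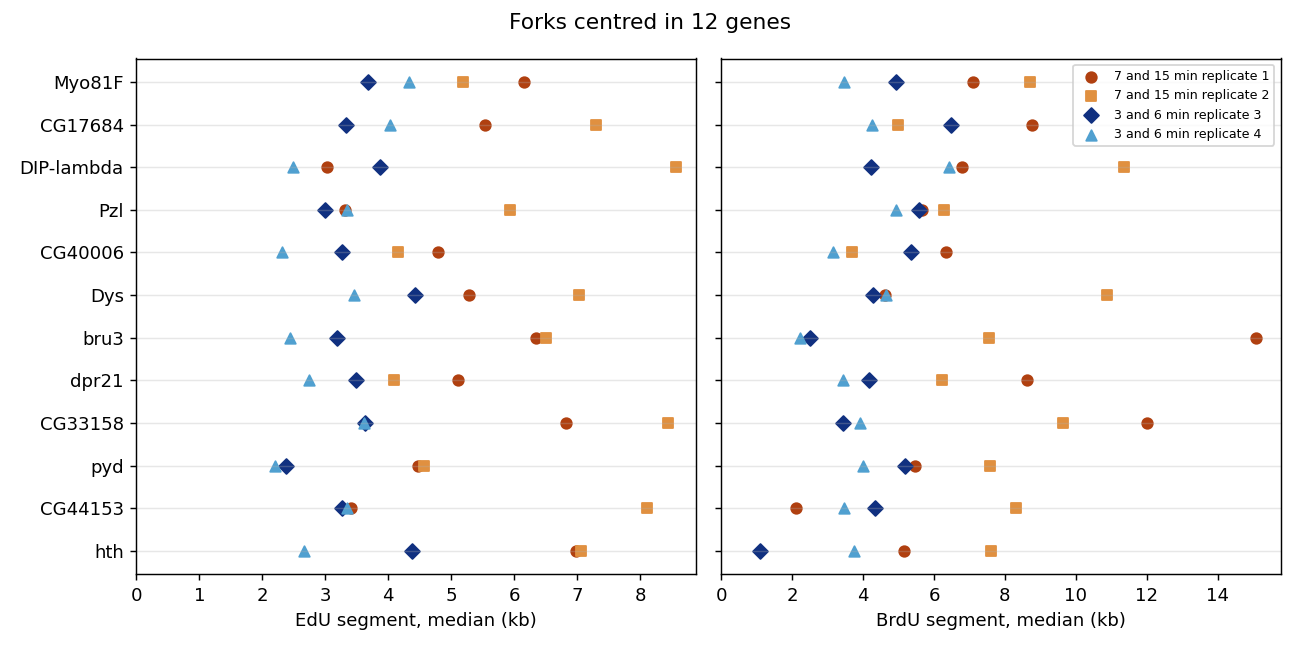
Median EdU (left) and BrdU (right) segment length in kb of the forks whose track midpoint lay in each of 12 genes, all versions and read lengths. Each point is 1 library, with short-pulse libraries in blue; in 10 of the 12 genes both short-pulse EdU points lie left of both long-pulse points, as they do in 71.2% of the 365 genes with a fork of every library.

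Gene by gene, short-pulse segments were shorter on average at each of the 12 protein-coding genes with the most forks. These genes were chosen for the highest smallest count over the 4 libraries, from 365 genes with a fork midpoint of every library, and 5 to 39 forks stood behind a value. Myo81F, which encodes an unconventional myosin, had median EdU segments of 3.67 and 4.34 kb in short-pulse replicates 3 and 4 and of 6.16 and 5.19 kb in long-pulse replicates 1 and 2. At bru3, which encodes an RNA-binding protein of the Bruno family, they were 3.18 and 2.44 kb against 6.34 and 6.51 kb. At Dys, the dystrophin gene, they were 4.43 and 3.45 kb against 5.28 and 7.03 kb. The long-pulse mean of EdU length was the higher one at each of the 12 genes, and at 95.9% of the 365.

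For EdU the groups did not overlap, with the long pulses higher, at 10 of the 12 genes and at 71.2% of the 365, for most of which at least 1 library had a single fork. The exceptions were DIP-lambda, for a partner of the dpr family of cell surface proteins, at 3.88 and 2.48 kb against 3.03 and 8.56 kb, and Pzl, a gene related to the mechanically gated Piezo channels, at 3.00 and 3.34 kb against 3.31 and 5.94 kb. For BrdU the long-pulse mean was higher at 12 of 12 genes, against 86.0% of the 365. The groups did not overlap at 8, against 48.2% of the 365, among them bru3 again, at 2.51 and 2.22 kb against 15.1 and 7.56 kb, and dpr21, a gene of the dpr family, at 4.16 and 3.43 kb against 8.62 and 6.23 kb. At CG44153, one of the 4 genes with overlap, the BrdU medians were 4.32 and 3.46 kb against 2.11 and 8.32 kb. The first-pair major share was higher in the long-pulse mean at 8 of the 12 genes, against 68.8% of the 365, and the second-pair share at 2, Pzl and CG33158, against 27.7%. With 5 to 39 forks behind each value and both caller versions pooled, no gene was tested on its own.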

How the data were processed

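Genomic DNA of S2 cells was read on nanopores. The submitters' processing notes name minimap2 2.24 and SAMtools 1.10 and the dm6 build. Fork calls came from DNAscent forkSense, versions 4.0.1 and 4.0.3, per the file headers. For each fork the deposited files give other values in bp (track, EdU and BrdU lengths and read ends) and 4 fractions without a stated analogue, printed here as percent. The stall score in the deposited files entered no comparison of the schemes. How bases were called and which thresholds ended a segment is not given in the sources used.

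Every fork on the 6 arms entered, with no filter. Each library was summarised by medians and quartiles and counted as 1 value. Schemes were compared over all 6 ways of splitting 4 libraries into pairs (exact permutation, two-sided), and read-length classes (under 30, 30 to 60 and over 60 kb) by an exact sign-flip test over 4 libraries, two-sided. Differences set beforehand were recovered in simulated libraries drawn from the pooled long-pulse forks. Those libraries had no spread of their own beyond sampling, so this does not test the p-values. Output blocks with under 50 forks and bins with under 20 forks were left out of ranges. Precision rests on 2 libraries per scheme. Named forks were, per library, the fork closest to the medians and those with the longest EdU and the longest BrdU segment. Named genes were the 12 with the highest smallest fork count over the libraries, from a RefSeq table of gene spans (assembly Release 6 plus ISO1 MT). The members and lists were chosen with earlier results of these data known. Alternatives covered caller version, read-end distance, means, class weights, fork direction, other events on the read, the control library and leaving out each library. Those on segment-length bins, on the stretch between segments and on combinations with version 4.0.3 were chosen after seeing the data. Python 3.11.15 was used, along with the packages numpy 2.4.6, pandas 2.3.3, scipy 1.17.1 for statistics and matplotlib 3.10.9 for figures. Fork reads were unique to a library, with 0 shared.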

Additional observations from a re-analysis of the deposited data

How the results depend on the processing

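Of 246 alternative values for 16 results, 225 kept the direction and 21 turned it, and no alternative could move a result of 2 against 2 libraries past a threshold of 0.05. Differences are short minus long. EdU length stayed between -0.83 and -0.29 on the log2 scale and BrdU length between -0.87 and -0.29, with the smallest differences among 4.0.3 forks that ended 5 kb inside the read. The second-pair major share turned to -3.65 points within DNAscent 4.0.3. Among 4.0.3 forks only, it was -4.10 with read-length classes weighted equally, -2.16 with ends 5 kb inside the read and -4.49, -2.81, -2.92 and -4.38 without replicates 1, 2, 3 and 4. Over both versions the same choices kept it positive, and the 5 kb limit gave 6.50. The first-pair minor share turned to 0.103 points within 4.0.3, and among those forks only it was 0.0057 with classes weighted equally, 0.146 with ends 5 kb inside the read and 0.178, 0.0291, 0.038 and 0.169 without replicates 1, 2, 3 and 4. Over both versions these choices kept it negative, and means over forks turned it to 0.066. The second-pair minor share turned to 0.135 points with means and to 0.15 without replicate 4 (-0.54 without replicate 3). The log2 BrdU to EdU ratio turned to 0.032 without replicate 3 (-0.22 without replicate 4), and to 0.045 without replicate 3 among 4.0.3 forks, while version 4.0.3 alone left it at -0.08. The stretch between segments turned to 0.088 kb with both ends 5 kb inside the read and to 0.092 kb with 10 kb. Adding the untreated control library, a long-pulse library, moved the first-pair major share to -0.98 points (exact permutation p = 0.4). Why these values turned was not tested. No paired analysis was possible because the short-pulse and long-pulse libraries share no replicate number. The fork files give fractions without the number of bases behind them, so depth per fork is unknown.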

Other observations

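The untreated control library, labelled with the long scheme and called with DNAscent 4.0.1 throughout, had 241 forks with an EdU segment of 4 to 5 kb and 234 with one of 5 to 6 kb, so the step at 5 kb seen in the 4.0.3 forks was not seen there. Its median EdU segment was 5.30 kb, its first-pair major share 88.6% and its second-pair major share 76.3%.

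A stall score was given to 12.9% of the forks of short-pulse replicate 3, 40.9% of those of replicate 4, 44.2% of those of long-pulse replicate 1 and 46.2% of those of replicate 2. Within long-pulse replicates 1 and 2 it was given to 33.5% and 35.7% of the 4.0.3 forks and to 45.9% and 47.3% of the 4.0.1 forks. The median distance from the BrdU end to the read end was 1.72 kb in short-pulse replicate 3, 7.87 kb in replicate 4, 8.02 kb in long-pulse replicate 1 and 9.82 kb in replicate 2.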
